A study of Mus musculus with 9 samples.

Results

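The genes of the mitochondrial genome were followed across 3 osmotic conditions in mouse embryonic fibroblasts. Members were all rows of the deposited expression table placed on chromosome MT, which gave 13 of the 35275 rows. All 13 were protein-coding, 12 on the plus strand and 1, mt-Nd6, on the minus strand. The annotation used here (GENCODE M21) also places 2 ribosomal RNA and 22 transfer RNA genes on this chromosome, and these were not analysed here. RNA-seq was made from wild type C57Bl/6 fibroblasts to ask how cells answer hyperosmotic stress of low and of high intensity, and each condition had 3 libraries. Control cells were kept in iso-osmolar DMEM. The second group was exposed to DMEM with 200 mM sucrose, 500 mOsm in total, and the other stressed group to DMEM with 300 mM sucrose, 600 mOsm in total. The cells were a cultured line, the libraries of a group are not described as separate cultures, and p-values measure only the spread between these samples.

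The mitochondrial genome is a small circle that encodes subunits of the respiratory chain and of ATP synthase, together with the RNAs needed to translate them. Both strands are transcribed by the polymerase Polrmt with Tfam as long precursors. These are cut largely at the transfer RNAs into single messages, most of which are polyadenylated. The abundance of each message therefore depends on transcription shared with its neighbours and on its own processing and decay. The 13 proteins belong to complex I (mt-Nd1 to mt-Nd6 and mt-Nd4l, of NADH dehydrogenase), complex III (mt-Cytb, cytochrome b), complex IV (mt-Co1 to mt-Co3, of cytochrome c oxidase) and complex V (mt-Atp6 and mt-Atp8, of ATP synthase).

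The genes are packed without introns, and the stretches where neighbours share bases matter for how reads are counted. All 13 positions in the table equalled those of GENCODE M21 on GRCm38 (mm10), and the sequences here are from its transcripts. mt-Atp8 (chrMT:7766-7969) and mt-Atp6 (chrMT:7927-8607) share 43 bases, mt-Nd4l (chrMT:9877-10173) and mt-Nd4 (chrMT:10167-11544) share 7, and mt-Nd5 (chrMT:11742-13565) and mt-Nd6 (chrMT:13552-14070) share 14 on opposite strands. mt-Atp6 also shares 1 base, at chrMT:8607, with mt-Co3. The plus strand around the longer shared stretches, at chrMT:7912-7984, chrMT:10152-10188 and chrMT:13537-13580, is shown with the shared bases in capitals.
mt-Atp8/mt-Atp6: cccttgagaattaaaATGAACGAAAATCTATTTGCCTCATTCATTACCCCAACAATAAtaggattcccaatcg
mt-Nd4l/mt-Nd4: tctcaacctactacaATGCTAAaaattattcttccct
mt-Nd5/mt-Nd6: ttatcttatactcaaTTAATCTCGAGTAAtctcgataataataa

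The messages of mt-Co3, mt-Nd4 and mt-Cytb end in the annotation with 1 base of an incomplete stop codon, which polyadenylation completes. Libraries were made from RNA held on poly-T beads, so a change in tail and a change in level cannot be told apart for any member. The last 30 bases, at chrMT:9361-9390, chrMT:11515-11544 and chrMT:15259-15288, are shown with the incomplete codon in a capital.
mt-Co3: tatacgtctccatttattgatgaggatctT
mt-Nd4: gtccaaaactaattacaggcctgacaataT
mt-Cytb: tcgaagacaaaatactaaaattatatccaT

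Part of the mitochondrial sequence is also present in the nuclear genome. A blastn search of the 13 transcripts against nuclear transcripts of GENCODE M21 found 11 nuclear genes, all annotated as pseudogenes, aligned over 100 bases or longer with 95% identity or better. Of these, 7 lie side by side on chromosome 1 (chr1:24611535-24616197, minus strand) and are at least 99% identical to their mitochondrial gene. Gm28661 (mt-Co2, 681 bases), Gm10925 (mt-Atp6, 678 bases), Gm28437 (mt-Co3, 783 bases), Gm10222 (mt-Nd4l, 294 bases) and Gm28439 (mt-Nd4, 876 bases) have no mismatch. Gm28438 differs from mt-Nd3 by T3C over 345 bases and Gm29216 from mt-Co1 by A1066T over 483 bases, with positions counted from the first base of the mitochondrial gene. The bases around these positions, at chrMT:9459-9475, chr1:24613103-24613119, chrMT:6390-6407 and chr1:24616171-24616188, are shown in the sense of the gene with the differing base in capitals.
mt-Nd3: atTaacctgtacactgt
Gm28438: atCaacctgtacactgt
mt-Co1: ggaAttgttttatccaac
Gm29216: ggaTttgttttatccaac

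The copies of at least 99% identity cover 5 members nearly whole. Of all windows of 150 bases in mt-Co2, 99.4% occurred unchanged in a nuclear transcript, as did 99.4% in mt-Atp6, 99.8% in mt-Co3, 97.0% in mt-Nd3 and 98.0% in mt-Nd4l. The share was 59.2% in mt-Nd4 and 23.6% in mt-Co1, and it was 0 in mt-Nd1, mt-Nd2, mt-Nd5, mt-Nd6, mt-Cytb and mt-Atp8. Between the copies of mt-Atp6 and mt-Co2 on chromosome 1 lie 233 bases with no annotated copy, and the genome sequence there was not searched. A read from a shared stretch cannot be placed by its sequence, and how such reads were counted is not given in the sources used here.

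Total counts per library were 21716042 to 24595257 in control, 24317625 to 26740832 at 500 mOsm and 22112672 to 26571968 at 600 mOsm, so that 3 counts correspond to 0.112 to 0.138 CPM, counts scaled to a common library size. No 2 libraries were identical. The cells carried fibroblast markers, of which 10 of 12 reached 1 CPM in every library (Dcn and Lum did not), with a summed level of 20728 to 25228 CPM. Summed markers of other cells were 0.0819 to 0.410 CPM in control, 3.85 to 4.80 at 500 mOsm and 0.309 to 0.544 at 600 mOsm for epithelium (4 genes), and 0.778 to 0.900, 11.5 to 12.9 and 2.01 to 3.18 CPM for endothelium (3 genes). Leukocyte markers (3 genes) summed to 0.901 to 1.64, 3.36 to 4.30 and 1.51 to 2.10 CPM, and muscle markers (3 genes) to at most 0.313 CPM, with Myog at 0 counts in all libraries. None of these 13 markers reached 1 CPM in every library. Their part in the results was not tested.

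Mitochondrial messages took a smaller share of all counts under stress. The 13 genes held 0.537%, 0.579% and 0.632% of the counts in the 3 control libraries, 0.396%, 0.394% and 0.492% at 500 mOsm, and 0.320%, 0.403% and 0.361% at 600 mOsm. All 6 stressed libraries lay below all 3 control libraries, while the libraries of the 2 stress intensities overlapped. The group means were 0.583% ± 0.0475, 0.427% ± 0.0558 and 0.362% ± 0.0415 (SD, n = 3). The share rests on 77275 to 152975 counts per library, and as a sum over the genes it was not tested. Few of these counts came from mt-Co2, mt-Co3, mt-Atp6, mt-Nd3 and mt-Nd4l. How reads that these genes share with nuclear copies entered the sum is not given in the sources used here. In such a share, fewer mitochondria, less RNA in each and more RNA from other genes cannot be told apart.

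Levels were compared between genes per length, as FPKM. In control cells mt-Co1, the catalytic subunit of cytochrome c oxidase, was highest at 1540 ± 36.5 FPKM (SD, n = 3). mt-Nd1, a membrane subunit at the quinone site of complex I, and mt-Cytb followed at 853 ± 125 and 841 ± 174 FPKM, which did not differ beyond their spread. Then came mt-Nd2 at 558 ± 70.7, mt-Nd5 at 355 ± 22.7, mt-Nd6 at 256 ± 16.6 and mt-Nd4 at 196 ± 32.9 FPKM. These 7 genes stood far above the 5 that have a near-whole nuclear copy of at least 99% identity. Those 5 ran from 38.5 ± 16.8 for mt-Nd3 through 19.8 ± 2.12 for mt-Co2, 10.9 ± 1.92 for mt-Co3 and 6.88 ± 0.493 for mt-Atp6 to 3.71 ± 0.684 FPKM for mt-Nd4l. At 600 mOsm the 7 genes spanned 72.9 to 1221 FPKM and the 5 genes 1.17 to 11.8 FPKM, again without overlap. What part the nuclear copies have in the low levels was not tested. mt-Atp8 had 2, 0 and 5 counts in the control libraries, 5, 4 and 4 at 500 mOsm and 1, 2 and 2 at 600 mOsm. It was the 1 member that did not pass the filter on low counts, and no change in it was detectable at this depth. At 0.488 ± 0.507 FPKM in control it was the lowest member, although 0% of its windows of 150 bases occurred in a nuclear transcript. The split between the 7 and the 5 genes therefore holds for tested members only.

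**Figure D1:**
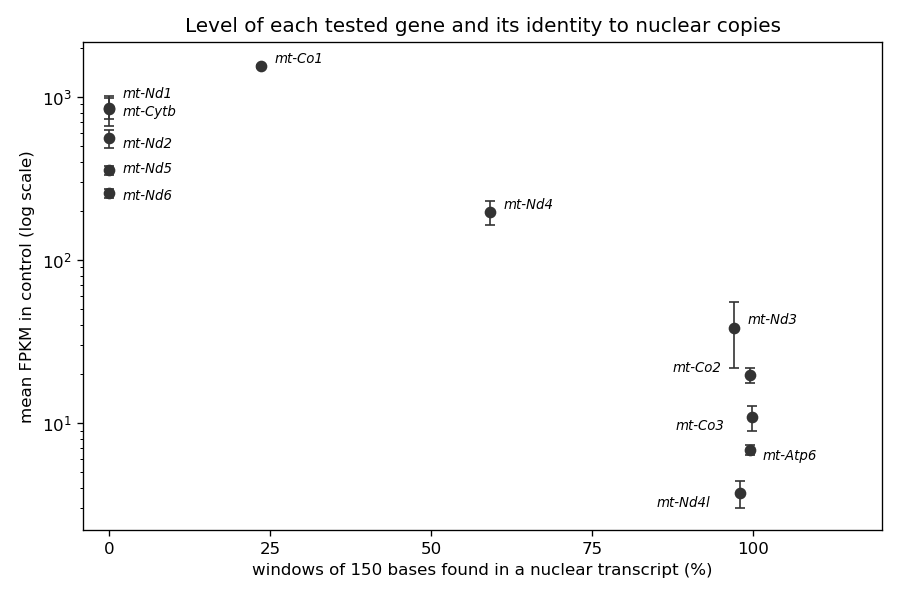
Mean FPKM of the 12 tested mitochondrial genes in control libraries (log axis, bars are the SD of 3 libraries) against the percentage of their windows of 150 bases that occur unchanged in a nuclear transcript. The 5 genes with 97.0% or more of their windows in a nuclear copy lie between 3.71 and 38.5 FPKM, and the other 7 lie between 196 and 1540 FPKM. mt-Atp8, with 0% of its windows in a nuclear transcript and a mean of 0.488 FPKM, was not tested and is not shown.

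At 500 mOsm the mitochondrial messages were lower than in control across all 4 complexes, with 1 tested gene each in complexes III and V. Of the 12 genes tested, 11 fell and 0 rose by edgeR's quasi-likelihood test at a Benjamini-Hochberg adjusted p under 0.05, where 14.8% of the 13082 genes tested were called lower and 13.2% higher. At an unadjusted p under 0.05, and by DESeq2 and limma, 0 members were higher as well. The members' median log2 difference was -0.73, against 0.01 over all genes tested. In 10 of the 12 genes every stressed library lay below every control library, as it did in 20.8% of all genes.

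At 600 mOsm, again 11 of 12 fell against control and 0 rose, where 20.0% of all genes tested were called lower and 15.1% higher. The count of higher members was also 0 at an unadjusted p under 0.05 and by the other 2 tools. The median log2 difference of the members was -1.03, against 0.01 over all genes. Ranges did not overlap in 11 of the 12 genes, against 25.5% of all genes in that direction. The 2 comparisons share the control libraries.

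**Figure D2:**
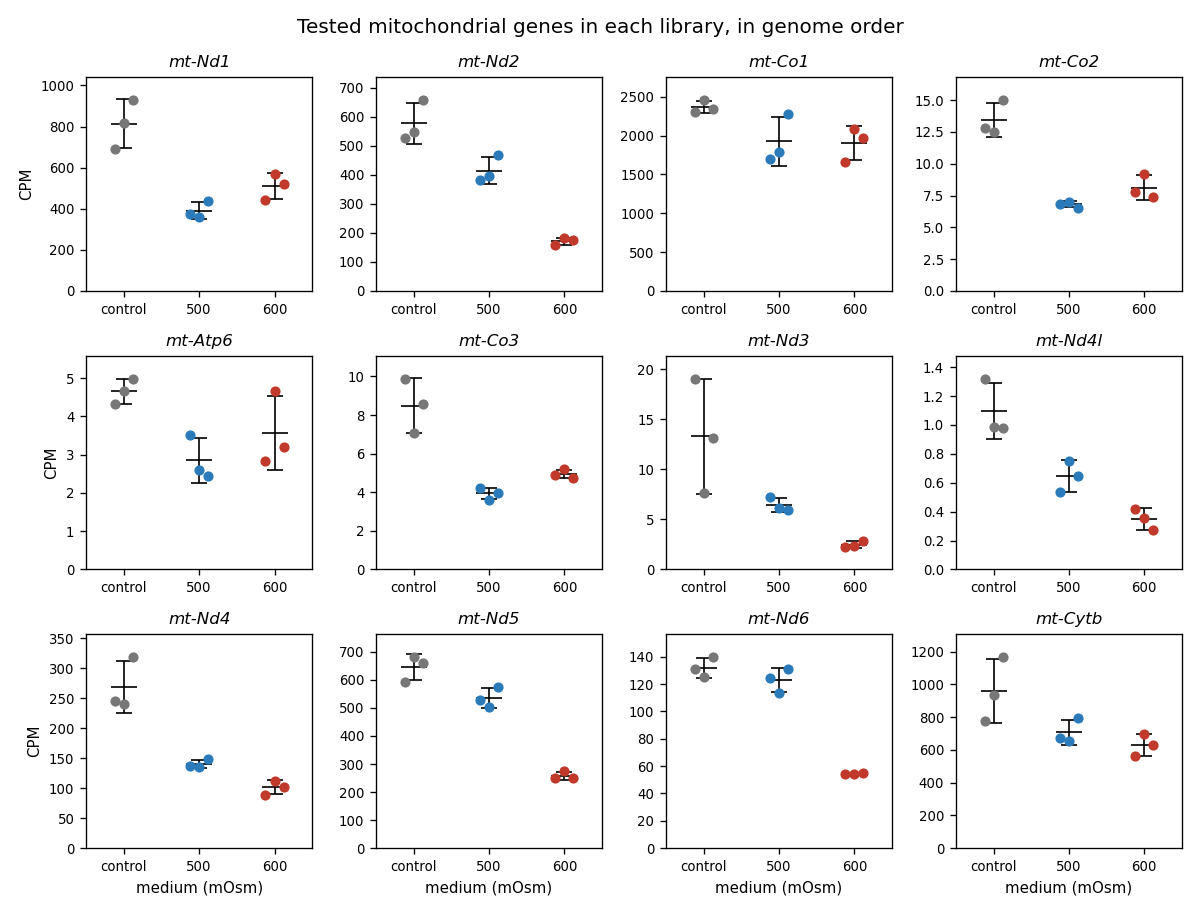
CPM of the 12 tested mitochondrial genes in each library, in genome order, with 1 panel a gene and a linear axis that starts at 0. Points are libraries and bars are the mean and SD of 3. mt-Nd2, mt-Nd3, mt-Nd4, mt-Nd4l, mt-Nd5 and mt-Nd6 sit lowest at 600 mOsm, whereas mt-Nd1, mt-Co2 and mt-Co3 are lowest at 500 mOsm.

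The change was uneven along the genome. Most complex I messages fell further at the higher intensity, whereas those of complexes III, IV and V were not called different between the 2 intensities, apart from mt-Cytb under 1 alternative given with its values. Between 600 and 500 mOsm, 5 members were called lower and 1 higher, where 17.2% of all genes were called lower and 11.9% higher. All 6 encode complex I subunits, as do 7 of the 12 tested members. The difference in calls between complexes was not tested. Outside complex I, mt-Co2, mt-Co3 and mt-Atp6 are nearly whole in nuclear copies and rest on few counts, as are mt-Nd3 and mt-Nd4l within it. Members with a near-whole copy had a median log2 difference of 0.25 between the intensities, and the other tested members -0.47. The groupings by complex and by nuclear copy overlap, and which of them the calls follow was not tested. Ranges did not overlap in 6 members that were lower and 3 that were higher, against 22.3% and 19.2% of all genes.

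Of complex I, all 7 genes fell at 600 mOsm, with a median log2 difference of -1.41, and 6 of 7 fell at 500 mOsm, with a median of -0.75. mt-Nd2, a subunit of the proton-pumping membrane arm, had 526, 547 and 657 CPM in the control libraries, 381, 394 and 468 at 500 mOsm and 157, 182 and 174 at 600 mOsm. The 3 groups were fully separate, with the lowest values at the higher intensity. Against control it fell by 28.1% at 500 mOsm (log2 -0.48, SE 0.09, adjusted p = 0.00178) and fell by 70.3% at 600 mOsm (log2 -1.75, SE 0.10, adjusted p = 5.88e-08). Between the intensities it fell by 58.7% (adjusted p = 8.74e-07).

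mt-Nd5 and mt-Nd6 face each other from opposite strands, and both were lower at 600 than at 500 mOsm. mt-Nd5, a large membrane subunit related to ion antiporters, had 594, 681 and 661 CPM in control, 528, 505 and 575 at 500 mOsm and 251, 275 and 249 at 600 mOsm. It fell by 16.9% at 500 mOsm (log2 -0.27, SE 0.06, adjusted p = 0.0073) and fell by 59.9% at 600 mOsm (log2 -1.32, SE 0.07, adjusted p = 3.11e-08). mt-Nd6, the only member transcribed from the other strand, had 131, 125 and 140 CPM in control, 124, 114 and 131 at 500 mOsm and 54.0, 54.2 and 55.1 at 600 mOsm. Its 500 mOsm libraries overlapped those of control, and the log2 difference of -0.10 (SE 0.06) did not pass the test (adjusted p = 0.239). At 600 mOsm it fell by 58.7% (log2 -1.28, SE 0.06, adjusted p = 2.17e-08). Between the intensities mt-Nd5 fell by 51.8% and mt-Nd6 fell by 55.7% (adjusted p = 1.64e-07 and 3.14e-08).

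The count ratio of mt-Nd5 to mt-Nd6 was 4.52 to 5.45 in control, 4.25 to 4.43 at 500 mOsm and 4.53 to 5.08 at 600 mOsm. Control and 600 mOsm overlapped, and the 500 mOsm libraries lay just below both. The library protocol in the labels marks no strand. Reads from mt-Nd6 and from RNA antisense to it therefore cannot be told apart.

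mt-Nd1, the first coding gene after the ribosomal RNAs, followed another order. It had 691, 819 and 929 CPM in control, 376, 359 and 439 at 500 mOsm and 443, 569 and 520 at 600 mOsm, so the lowest libraries were those at 500 mOsm. It fell by 51.9% at 500 mOsm (log2 -1.05, SE 0.11, adjusted p = 1.36e-05) and fell by 37.2% at 600 mOsm (log2 -0.67, SE 0.11, adjusted p = 0.000556). It was the 1 member called higher at 600 than at 500 mOsm, by 30.5% (log2 0.38, SE 0.11, adjusted p = 0.0207). That call was lost with offsets for GC content and length (log2 0.24, adjusted p = 0.0861), with limma on log2(FPKM + 1), and without 500 mOsm replicate 1 or 2 or 600 mOsm replicate 2 or 3 (log2 0.36, 0.33, 0.30 and 0.37).

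mt-Nd4, another antiporter-like subunit of the membrane arm, had 245, 241 and 318 CPM in control, 137, 135 and 148 at 500 mOsm and 89.0, 112 and 103 at 600 mOsm. It stepped down at each intensity, and the groups did not overlap. Against control it fell by 47.9% at 500 mOsm and fell by 62.2% at 600 mOsm (log2 -0.94 and -1.41, adjusted p = 1.98e-05 and 7.68e-07), and fell by 27.6% from 500 to 600 mOsm (adjusted p = 0.0052).

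The small subunit genes mt-Nd3 and mt-Nd4l, both nearly whole in nuclear copies, rest on few counts. mt-Nd3 had 19.1, 7.66 and 13.2 CPM in control, 7.30, 6.11 and 5.99 at 500 mOsm and 2.22, 2.37 and 2.86 at 600 mOsm. The control libraries were widely spread, and control replicate 2 lay just above the highest library at 500 mOsm. mt-Nd3 fell by 51.3% at 500 mOsm (log2 -1.04, SE 0.25, adjusted p = 0.00681) and fell by 81.2% at 600 mOsm (log2 -2.41, SE 0.28, adjusted p = 3.37e-05), the largest difference among the members. With 1 library left out in turn, the log2 difference at 600 mOsm ranged from -2.69 to -2.06. mt-Nd4l had 0.271 to 1.32 CPM over all libraries and fell by 67.8% at 600 mOsm (log2 -1.64, SE 0.30, adjusted p = 0.00106). Its call at 500 mOsm (log2 -0.75, adjusted p = 0.0496) was lost without any 1 of the 9 libraries and by DESeq2 (adjusted p = 0.224). It was also lost with RLE factors, with library totals, with no filter on low counts, in a fit of the 2 groups alone, and with the replicate block with or without the GC content and length offsets (adjusted p of 0.0504 to 0.0866). Between the intensities its log2 difference of -0.89 did not pass (adjusted p = 0.0541), but it passed with the offsets alone (log2 -0.99, adjusted p = 0.0329) and with limma at either pseudocount (log2 -0.55 and -0.85).

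Complex IV messages fell at both intensities and were not called different between them. mt-Co1 had 2303, 2458 and 2343 CPM in control, 1702, 1795 and 2282 at 500 mOsm and 1658, 2081 and 1968 at 600 mOsm. Both stressed groups lay below control, and 1 library at 500 mOsm came close to it. mt-Co1 fell by 18.7% and fell by 19.7% (log2 -0.30 and -0.32, SE 0.10 each, adjusted p = 0.0440 and 0.0289), which at 600 mOsm is the smallest difference called. The call at 500 mOsm was lost without any 1 of the control libraries or 500 mOsm replicate 1 or 2 (log2 -0.32 to -0.22). It was also lost with library totals as the only scaling, with at least 10 counts asked of every library, with offsets for GC content and length, and with limma on log2(FPKM) at either pseudocount (log2 -0.31 to -0.27, adjusted p of 0.0508 to 0.0658). The call at 600 mOsm was lost without control replicate 2 or 3 or 600 mOsm replicate 1 (log2 -0.32 to -0.23). Between the intensities the log2 difference was -0.02 (SE 0.10, adjusted p = 0.920), and it took either sign among the alternatives (-0.11 to 0.12).

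mt-Co2, the subunit that takes electrons from cytochrome c, had 12.8, 12.5 and 15.0 CPM in control, 6.85, 7.01 and 6.56 at 500 mOsm and 7.79, 9.22 and 7.35 at 600 mOsm. It fell by 49.4% and fell by 39.7% (log2 -0.98 and -0.73, adjusted p = 2.56e-05 and 0.000297). mt-Co3, a structural subunit of the complex core, had 9.88, 7.05 and 8.55 CPM in control, 4.22, 3.62 and 3.97 at 500 mOsm and 4.90, 5.19 and 4.76 at 600 mOsm. In both genes the 600 mOsm libraries sat above those at 500 mOsm without overlap, yet the differences of 0.25 and 0.33 on the log2 scale did not pass the test (adjusted p = 0.127 and 0.103). Against control mt-Co3 fell by 53.6% and fell by 41.6% (log2 -1.11 and -0.78, adjusted p = 4.67e-05 and 0.000726). Both genes are nearly whole in nuclear copies and rest on few counts, 167 to 367 per library for mt-Co2 and 96 to 217 for mt-Co3.

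mt-Cytb, the mitochondrial member of complex III, had 774, 935 and 1165 CPM in control, 673, 652 and 793 at 500 mOsm and 564, 698 and 627 at 600 mOsm. The 500 mOsm libraries reached the lowest control library, and the 600 mOsm libraries did not. It fell by 26.3% (log2 -0.44, SE 0.13, adjusted p = 0.0193) and fell by 34.3% (log2 -0.61, SE 0.13, adjusted p = 0.0027). The first call was lost without control replicate 3 (log2 -0.28) and without 500 mOsm replicate 1 or 2 (log2 -0.41 and -0.40). Between the intensities the log2 difference was -0.17 (adjusted p = 0.368). It was called with the GC content and length offsets and the replicate block together (log2 -0.27, adjusted p = 0.00449) and not with the offsets alone (log2 -0.28).

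mt-Atp6, the proton channel subunit of ATP synthase, had 4.33, 4.67 and 4.99 CPM in control, 3.53, 2.60 and 2.44 at 500 mOsm and 2.85, 4.66 and 3.21 at 600 mOsm. It fell by 38.9% at 500 mOsm (log2 -0.71, SE 0.19, adjusted p = 0.0146), a call lost without 500 mOsm replicate 3 (log2 -0.61). At 600 mOsm 1 library lay within the control range, and the log2 difference of -0.39 (SE 0.19) did not pass the test (adjusted p = 0.130). It passed without 600 mOsm replicate 2 (log2 -0.62, adjusted p = 0.0190) and with the GC content and length offsets (log2 -0.58, adjusted p = 0.00752). mt-Atp6 is also nearly whole in a nuclear copy and rests on 64 to 122 counts per library.

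**Figure D3:**
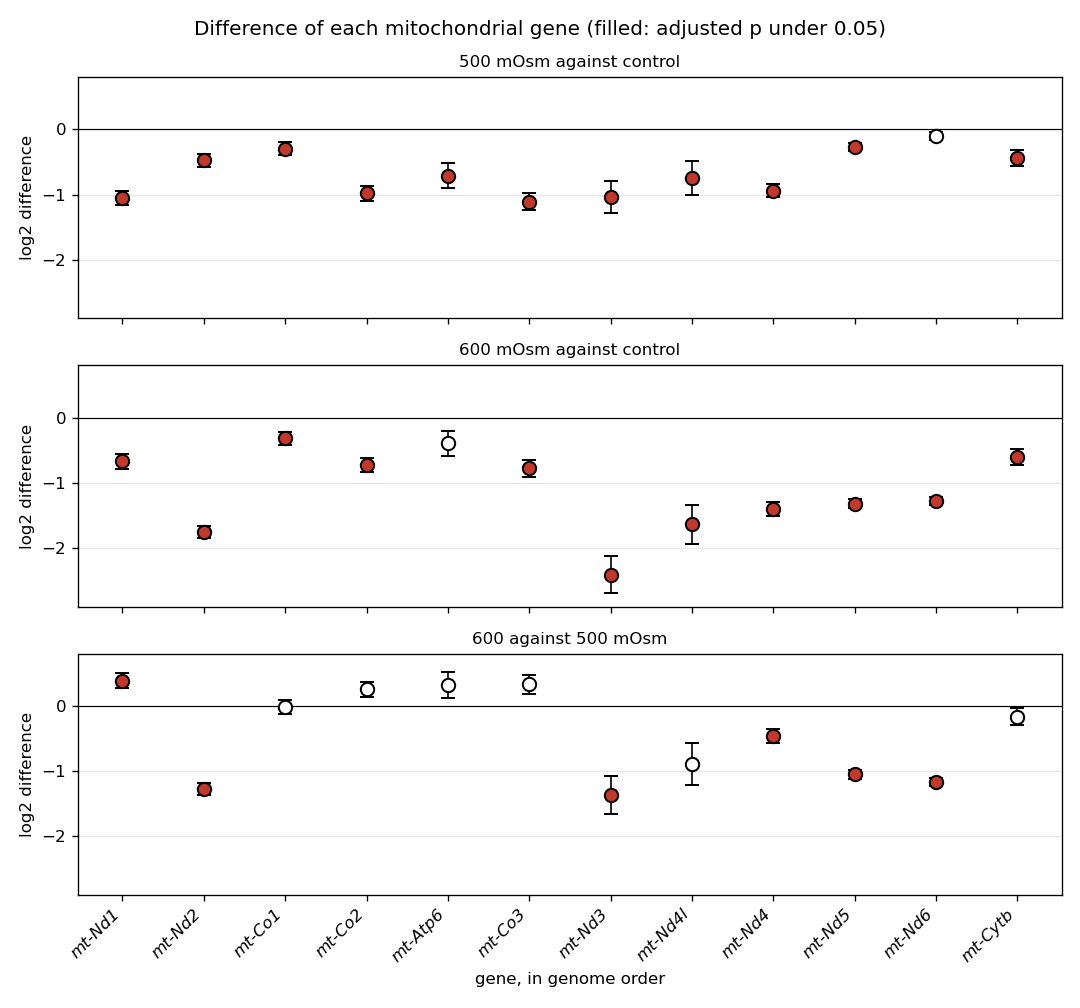
Log2 difference of each tested mitochondrial gene in genome order for the 3 comparisons, with the standard error from edgeR; filled points have an adjusted p under 0.05. All 12 points lie below 0 in both comparisons with control, the lowest at -1.11 (500 mOsm) and -2.41 (600 mOsm), and 4 of 12 points lie above 0 between the intensities.

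The make-up of the mitochondrial counts shifted with intensity. mt-Co1 made up 43.4%, 42.1% and 37.5% of them in control, 43.2%, 45.2% and 47.0% at 500 mOsm and 51.3%, 52.1% and 53.0% at 600 mOsm. mt-Nd2 held 9.36% to 10.5% in control and 9.64% to 9.92% at 500 mOsm but 4.56% to 4.85% at 600 mOsm. mt-Nd1 was 13.0% to 14.8% in control, 9.04% to 9.52% at 500 mOsm and 13.7% to 14.2% at 600 mOsm. mt-Cytb kept a mean share of 16.4% ± 2.06, 16.6% ± 0.406 and 17.3% ± 0.339 (SD, n = 3). On the log2 scale, differences in level relative to the mitochondrial sum spanned 0.99 over the 12 genes at 500 mOsm and 2.00 at 600 mOsm against control. At 600 mOsm they ran from -1.65 for mt-Nd3 and -1.08 for mt-Nd2 to 0.35 for mt-Co1. The 5 genes with a near-whole nuclear copy each held little, from a mean of 0.0191% (mt-Nd4l) to 0.234% (mt-Nd3) in control. How reads shared with nuclear copies were counted is not given, so these are shares of counted reads and not of the messages present. They are ratios within a library and show unequal change, not which message stayed the same.

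**Figure D4:**
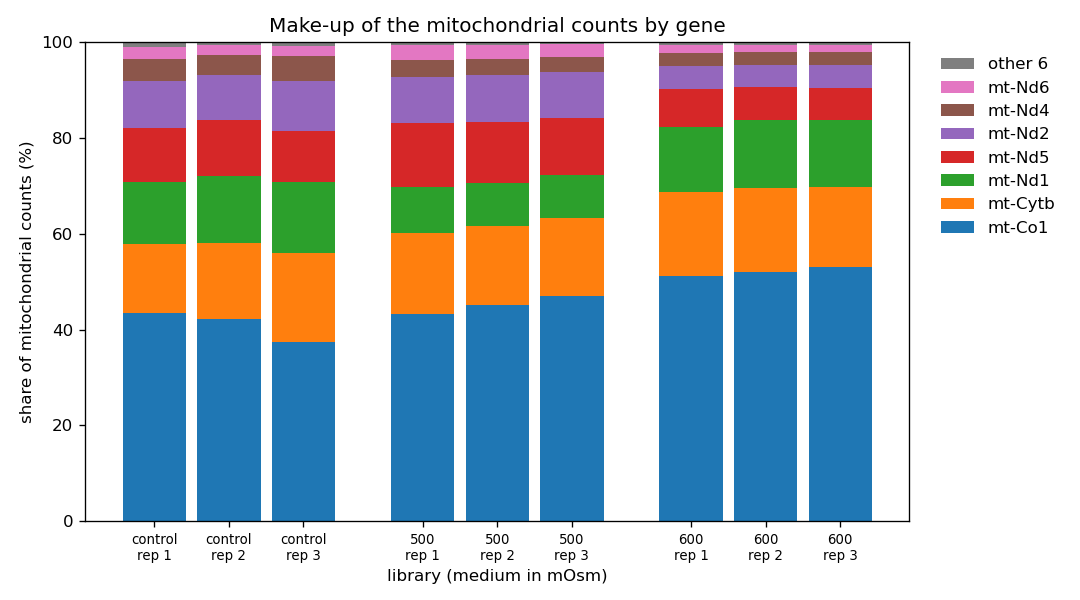
Percentage of all counts on the mitochondrial genome held by each gene in the 9 libraries (stacked bars, each adding to 100%; the 6 least counted genes are pooled). The mt-Co1 share is 37.5% to 43.4% in control and 51.3% to 53.0% at 600 mOsm, and the mt-Nd2 share is 4.56% to 4.85% at 600 mOsm.

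Neighbours did not keep a fixed ratio. The count ratio of mt-Nd2 to mt-Nd1, which lie next to each other apart from transfer RNA genes, was 0.668 to 0.761 in control, 1.01 to 1.10 at 500 mOsm and 0.320 to 0.354 at 600 mOsm. The 3 groups were separate and the stress intensities lay on opposite sides of control. mt-Nd2 to mt-Co1 was 0.222 to 0.281 in control, 0.205 to 0.224 at 500 mOsm and 0.0875 to 0.0946 at 600 mOsm. mt-Nd1 to mt-Cytb, the first and last coding genes, was 0.797 to 0.893, 0.551 to 0.558 and 0.787 to 0.830. None of these sequences has a window of 150 bases in an annotated nuclear transcript except for 23.6% of those in mt-Co1.

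The nuclear pseudogenes were counted as rows of their own, and 9 of 11 were tested. Of these, 5 were called lower at 500 mOsm, 6 at 600 mOsm and 0 higher in either, where 14.8% and 20.0% of all genes were called lower. Gm28661 had 356, 417 and 500 counts in the control libraries, a number close to the 281 to 367 of mt-Co2, its identical counterpart. Its log2 differences of -1.05 at 500 mOsm and -0.82 at 600 mOsm stand beside -0.98 and -0.73 for mt-Co2. Gm28439 gave -0.94 and -1.49 beside -0.94 and -1.41 for mt-Nd4, and Gm28437 gave -1.11 and -1.03 beside -1.11 and -0.78 for mt-Co3. Gm28438 gave -1.54 and -2.14 beside -1.04 and -2.41 for mt-Nd3 (adjusted p of 0.00789 or less for all 8 pseudogene values). Gm10222 gave -0.86 and -1.57 beside -0.75 and -1.64 for mt-Nd4l (adjusted p = 0.0526 and 0.00355), and Gm10925 gave -0.60 and -0.32 beside -0.71 and -0.39 for mt-Atp6 (adjusted p = 0.0209 and 0.171).

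Gm29216, the copy of mt-Co1 on chromosome 1 with 171 to 236 counts in every library, gave -0.05 and -0.12 (adjusted p = 0.804 and 0.455). Gm13340 on chromosome 2, 97.6% identical over 1545 bases, gave -0.38 and -0.50 (adjusted p = 0.107 and 0.0317), and Gm13341, 95.9% identical to mt-Co2, gave -0.77 and -0.75 (adjusted p = 0.102 and 0.0987). Gm13339, 96.7% identical to mt-Nd2 over 510 bases, had at most 10 counts, and Gm4076, related to mt-Nd5, at most 1. Between the intensities edgeR called 0 of the 9. Whether reads in these rows came from the mitochondrial or the nuclear copy was not tested. With the counts of the 7 near-identical copies added to their mitochondrial rows, 11, 11 and 6 members were lower in the 3 comparisons, the additional one being mt-Nd4l between the intensities (log2 -0.81, adjusted p = 0.0149).

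Nuclear genes that serve mitochondrial RNA were read from a list of 78, of which 76 were tested. At 500 mOsm 19 fell and 0 rose (5 were higher at an unadjusted p under 0.05, 0 by DESeq2 and 1 by limma), with a median log2 difference of -0.09, where 14.8% of all genes tested were called lower and 13.2% higher. At 600 mOsm 7 fell and 8 rose with a median of 0.02, both shares of the 76 being below the 20.0% and 15.1% of all genes. From 500 to 600 mOsm 3 fell and 20 rose with a median of 0.15, where 17.2% of all genes were called lower and 11.9% higher. The medians over all genes were 0.01 in each case. Leaving out control replicate 3 or 600 mOsm replicate 3 lowered the 8 to 4 or 5, whereas the GC content and length offsets raised it to 14 and raised the 0 higher at 500 mOsm to 5.

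The roles hold few genes each, and no role was tested as a set. Of all genes, 14.8% were called lower and 13.2% higher at 500 mOsm, and 20.0% and 15.1% at 600 mOsm. Among 10 genes of transcription, 5 fell and 0 rose at 500 mOsm, and 1 fell and 1 rose at 600 mOsm. The gene that rose was Polrmt, the mitochondrial RNA polymerase, named here after its values were seen. It had a log2 difference of 0.22 at 500 mOsm (adjusted p = 0.0577) and rose by 31.8% at 600 mOsm (log2 0.40, adjusted p = 0.00216). Tfam, also named after its values were seen, fell by 15.5% at 500 mOsm (log2 -0.24, adjusted p = 0.0402). At 600 mOsm its log2 difference of -0.16 did not pass the test (adjusted p = 0.151). Tefm, the elongation factor of the mitochondrial polymerase, fell by 36.9% (log2 -0.66, adjusted p = 0.000273) and fell by 25.5% (log2 -0.43, adjusted p = 0.00576). Mterf1a, of the mitochondrial termination factor family, went from 1.48 to 0.559 CPM at 500 mOsm (adjusted p = 0.000963) and stood at 1.33 CPM at 600 mOsm (adjusted p = 0.631). Of 10 genes of replication, 3 and 1 fell, where 14.8% and 20.0% of all genes were called lower. Peo1, the helicase Twinkle, fell by 45.4% at 500 mOsm (adjusted p = 7.26e-06) and had a log2 difference of -0.15 at 600 mOsm (adjusted p = 0.202). Dna2, a nuclease and helicase, fell by 35.0% and fell by 18.4% (adjusted p = 5.11e-05 and 0.0100).

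Of 21 genes of RNA processing and modification, 5 fell at 500 mOsm, where 14.8% of all genes were called lower. At 600 mOsm 3 of the 21 rose, where 15.1% of all genes were called higher. Rnmtl1, a ribosomal RNA methyltransferase, fell by 37.5% (adjusted p = 6.83e-06) and Trmt5, a transfer RNA methyltransferase, fell by 40.7% (adjusted p = 0.000505) at 500 mOsm, and neither was called at 600 mOsm (adjusted p = 0.416 and 0.788). Of 15 genes of polyadenylation, stability and decay, 4 fell at 500 mOsm, and 2 fell and 1 rose at 600 mOsm. Over all genes, 20.0% were called lower and 15.1% higher at 600 mOsm. Grsf1, an RNA granule protein, had a log2 difference of -0.09 at 500 mOsm (adjusted p = 0.251) and fell by 21.7% at 600 mOsm (adjusted p = 0.000389). Fastkd3, of the FASTK family of mitochondrial RNA-binding proteins, fell by 24.4% and fell by 17.6% (adjusted p = 0.00397 and 0.0277).

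Of 7 tested nuclear regulators, 2 fell at 500 mOsm and 3 at 600 mOsm, where 14.8% and 20.0% of all genes were called lower. Pprc1, a coactivator of the PGC-1 family, fell by 38.0% and fell by 25.1% (adjusted p = 3.22e-07 and 2.84e-05). Yy1 had a log2 difference of -0.07 at 500 mOsm (adjusted p = 0.431) and fell by 34.0% at 600 mOsm (adjusted p = 5.96e-06). Of 13 translation factors and activators, edgeR called 0 at 500 mOsm and 3 higher at 600 mOsm, where 15.1% of all genes were called higher. Tufm, the mitochondrial elongation factor Tu, rose by 10.5% and Gfm2, a ribosome recycling factor, by 23.1% at 600 mOsm (adjusted p = 0.0257 and 0.00981).

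The nuclear subunits of the same complexes went the other way at 600 mOsm. Of 74 listed, 73 were tested, and 54 rose and 0 fell against control, with a median log2 difference of 0.24, where 15.1% of all genes were called higher. At 500 mOsm 0 rose and 0 fell by edgeR and by DESeq2, with a median of 0.05, where 13.2% of all genes were called higher and 14.8% lower. At an unadjusted p under 0.05 in that comparison 5 were higher, and by limma 4. Between the intensities 40 rose and 0 fell with a median of 0.18, where 11.9% of all genes were called higher and 17.2% lower. Against control at 600 mOsm, 24 of 36 rose in complex I, 5 of 9 in complex III, 11 of 11 in complex IV and 14 of 17 in complex V. By the sign alone 71 of the 73 were above 0, whereas all 12 tested mitochondrial members were below 0. Offsets for GC content and length lowered the 54 to 28 and the 40 to 18, and leaving out 600 mOsm replicate 1 or 3 lowered the 40 to 20 or 25. Median GC content was 37.1% for the members and 47.9% over rows of the table with a transcript.

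Named subunits rose by modest amounts beside the fall of their mitochondrial partners. Ndufa11 of complex I rose by 21.6% at 600 mOsm (log2 0.28, adjusted p = 0.00228) and Uqcrq of complex III by 27.4% (log2 0.35, adjusted p = 0.000163). Cox7b of complex IV rose by 30.2% (log2 0.38, adjusted p = 9.30e-05) and Atp5e of complex V by 25.1% (log2 0.32, adjusted p = 0.000592). None of the 4 was called at 500 mOsm, where their log2 differences were -0.07, 0.09, 0.14 and 0.10. In each complex, the subunit below control with the smallest p was found at 500 mOsm, and these were Ndufs1, Uqcrfs1, Cox5a and Atp5a1, with log2 differences of -0.11, -0.05, -0.04 and -0.08 that did not pass the test (adjusted p = 0.310, 0.506, 0.734 and 0.175).

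**Figure D5:**
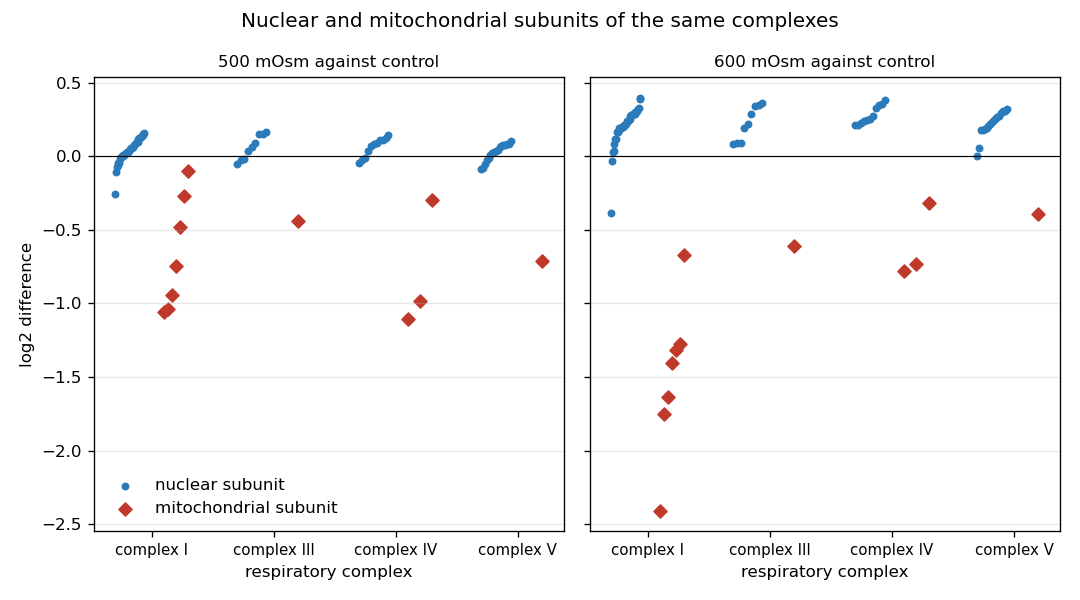
Log2 difference against control of nuclear (circles) and mitochondrial (diamonds) subunits of complexes I, III, IV and V at 500 and at 600 mOsm; each point is a gene. At 600 mOsm 71 of 73 nuclear subunits lie above 0, and the 12 tested mitochondrial subunits lie between -2.41 and -0.32.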

How the data were processed

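Poly-T-selected RNA was fragmented, copied with random hexamers and read on an Illumina HiSeq in paired ends. The submitters' processing notes name CASAVA 1.8, STAR and mm10, and the counting tool and its treatment of multi-mapping reads are not given in the sources used here. The authors deposited 1 table of counts and FPKM per gene and library, which also holds the authors' own log2 fold changes and p-values, not used here. Counts were normalised by TMM, filtered with filterByExpr (13082 genes) and tested with edgeR 4.0.16 (quasi-likelihood, R 4.3.3) in a single fit of the 9 libraries, with Benjamini-Hochberg adjustment over all genes tested and a threshold of 0.05. CPM use TMM-scaled library sizes. The script was tested on simulated data.

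All members are named with values. On the nuclear lists, the 2 genes with the smallest p per role and, for subunits, the gene with the smallest p per direction and complex are named, as are pseudogenes found by blastn 2.17.0. Members and lists were chosen with earlier results of these data known. Alternatives were RLE factors, library totals, normalisation without chrMT rows, no filter or at least 10 counts, DESeq2 1.42.0, limma 3.58.1 on log2 FPKM plus 1 or 0.1, a fit of 2 groups, a replicate block, GC content and length offsets (values for 99.5% of genes tested) and each library left out. Summing the nuclear copies was added after the data were seen.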

Additional observations from a re-analysis of the deposited data

How the results depend on the processing

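Over 263 refitted values of single members per comparison, 233 kept direction and call at 500 mOsm and 30 lost the call, 257 did so at 600 mOsm with 3 lost and 3 gained, and 249 did so between the intensities with 6 lost, 5 gained and 3 that changed sign without a call. The sign changes were all of mt-Co1, at 0.0011 with no filter, 0.12 without 500 mOsm replicate 3 and 0.07 without 600 mOsm replicate 1, within -0.10 to 0.12 over all libraries left out. The number of members lower ranged from 8 to 11 at 500 mOsm, from 10 to 12 at 600 mOsm and from 5 to 6 between the intensities, and the number higher was 0 against control in every alternative. The 1 member higher between the intensities became 0 with GC content and length offsets and with limma on log2(FPKM + 1), and ranged from 0 to 1 with libraries left out. Replicate numbers did not pair the libraries, with a mean correlation of deviations of -0.22 over 9 same-numbered pairs and 0.11 over 18 other pairs, and 2 of 9 libraries closest to their own number. With the replicate block 10, 11 and 5 members were lower in the 3 comparisons and 0, 0 and 1 higher. By summed FPKM the mitochondrial share was 1.05%, 0.744% and 0.596%.

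For nuclear genes of mitochondrial RNA metabolism, the number higher at 500 mOsm was 0 and became 1 with RLE factors, with a fit of 2 groups and with limma on log2(FPKM + 1), 2 with library totals, with at least 10 counts and with limma on log2(FPKM + 0.1), 3 with no filter, 5 with GC content and length offsets with or without the block, and 0 to 2 with libraries left out. At 600 mOsm the 8 higher became 14 with the offsets and 4 to 8 with libraries left out. For nuclear subunits at 500 mOsm, the 0 higher became 2 with library totals, 3 with at least 10 counts, 1 with a fit of 2 groups, 4 with limma at either pseudocount and 0 to 2 with libraries left out, where the number lower was 0 to 1. Their 54 higher at 600 mOsm became 28 with the offsets and 23 with offsets and block, and the 40 higher between the intensities became 18 and 14, 27 with the block alone and 20 to 45 with libraries left out. The span of relative levels was 0.99 to 1.16 at 500 mOsm and 1.67 to 2.38 at 600 mOsm with libraries left out, highest in both without control replicate 2 and lowest at 600 mOsm without control replicate 1. The cause of these shifts was not tested. Depth limits mt-Atp8 and mt-Nd4l, the members with the fewest counts.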
